A study of Mus musculus with 3 samples.

Results

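Collagens that surround tendon cells or decorate collagen fibrils were followed in single-cell RNA sequencing (scRNAseq) of the flexor digitorum longus (FDL) tendon of mice. They were chosen by gene symbol and comprise 10 of the 32285 genes in the count tables: Col6a1, Col6a2, Col6a3, Col8a1, Col8a2, Col12a1, Col14a1, Col15a1, Col16a1 and Col22a1. All 10 had UMIs (unique molecular identifiers, 1 per captured transcript) in each of the 3 libraries. The study asked how loss of Scleraxis-lineage cells in young tendons compares with natural aging. The 6 M DTR library came from Scx-Cre+; DTR F/+ mice, in which a Cre driven by Scleraxis (Scx) sequences switches on a diphtheria toxin (DT) receptor in Scleraxis-lineage cells. The 6 M WT library came from Scx-Cre-; DTR F/+ littermates, which carry the same silent receptor allele without Cre. Both received 5 daily DT injections at 3 months of age, the age their labels give, and were harvested at 6 months. The 21 M B6 library came from C57BL/6J mice of 21 months, with neither allele and no injection. Each library pooled 16 tendons from mice of both sexes, so each group is 1 library, no difference between groups has a replicate check, and no p-value can be given. Digestion took 2 h for 6 M WT and 1.5 h for the other libraries, which cannot be told apart from depletion or age.

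Type VI collagen is assembled from 3 different chains into beaded microfilaments that form much of the pericellular matrix around tendon cells. Types XII, XIV, XVI and XXII belong to the fibril-associated collagens with interrupted triple helices, of which XII and XIV sit on fibril surfaces and XXII is known from the muscle-tendon junction. Type XV is a basement membrane zone collagen of the multiplexin family, and type VIII is a short-chain, network-forming collagen first described in endothelial cells. In GENCODE M21 transcripts with the gene identifiers of the count tables, the longest reading frames of the 10 genes ranged from 699 residues for Col8a2 to 3284 residues for Col6a3. The share of residues in runs of at least 5 Gly-X-Y triplets, the repeat of the collagen helix, ranged from 8.12% in Col12a1 to 63.5% in Col8a2. Col12a1 and Col14a1, of 3065 and 1798 residues, both held 249 such residues in 5 runs.

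After the filter of the study, 8357 cells of 6 M WT, 6554 of 6 M DTR and 4798 of 21 M B6 remained, with a median of 12328 to 13008 UMIs. Barcodes over the mitochondrial limit made up 27.6%, 43.1% and 56.5% of 6 M WT, then 6 M DTR, then 21 M B6, and the part of this in the differences between libraries was not tested. Cells were sorted into 9 classes by counting markers, 8 per class, and no class had another class's markers among its 10 leading genes. Values below are given in library order, that is 6 M WT, then 6 M DTR, then 21 M B6. Tenocyte-like cells numbered 5215, 2763 and 895, and epitenon-like cells (the sheath around the tendon) numbered 1070, 1006 and 2334. Cells in no class made up 11.95%, 13.7% and 15.0%. Cells called female by Xist and Y-linked UMIs made up 72.6%, 41.1% and 53.0% of the sex-called tenocyte-like cells and 68.6%, 45.2% and 55.3% of the epitenon-like cells. Between 13 and 15 cell barcodes were shared by any pair of libraries. A level is given as CPM, the UMIs of a gene per 1000000 UMIs summed over the cells of a class, with a 95% exact Poisson interval, and ratios carry a 95% exact binomial interval. These intervals cover counting error only. In tenocyte-like cells chondrocyte markers summed to 140.4, 188 and 90.7 CPM, neutrophil markers to 37.6, 0.658 and 0.471 CPM, and adipocyte or B and mast cell markers to under 1 CPM each, and their part in the results was not tested.

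**Figure D1:**
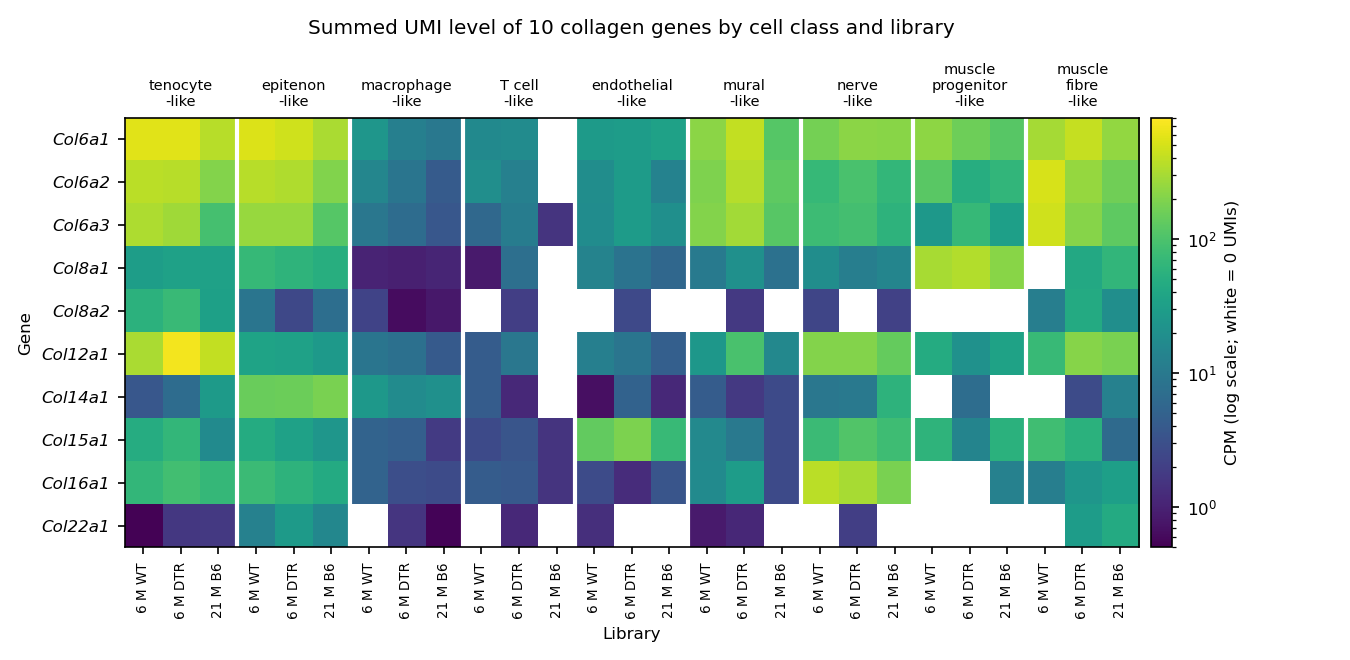
Level (CPM, colour on a log scale) of the 10 collagen genes (rows) in 9 cell classes, each with a column for 6 M WT, then 6 M DTR, then 21 M B6; white marks 0 UMIs. Col6a1, Col6a2 and Col6a3 were high in both stromal classes, Col12a1 in tenocyte-like cells, Col14a1 in epitenon-like cells, Col15a1 in endothelial-like cells, Col16a1 in nerve-like cells and Col8a1 in muscle progenitor-like cells.

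The type VI chains were the most broadly used members in the stroma, and all 3 were lower in 21 M B6 than in 6 M WT, whereas 6 M DTR stood close to 6 M WT. Col6a1 and Col6a2, whose products pair with the larger alpha 3 chain of Col6a3, lie on chromosome 10 and Col6a3 on chromosome 1. Their levels ran together over the 23 pairs of class and library with at least 20 cells, with a Pearson r of log2(CPM + 1) of 0.98 for Col6a1 and Col6a2, 0.97 for Col6a2 and Col6a3 and 0.96 for Col6a1 and Col6a3. These points share libraries, so the correlations are a description. From cell to cell r was taken in the 5215, 2763 and 894 tenocyte-like cells left after each cell was thinned to 2000 UMIs. There r was lower, at 0.22, 0.23 and 0.22 for these pairs in 6 M WT. It was 0.27, 0.22 and 0.24 in 6 M DTR and 0.08, 0.12 and 0.08 in 21 M B6. The part of low counts per cell, which thinning lowers further, was not tested. The lower r therefore cannot be read as weak pairing of the chains within cells. The 120 bases directly upstream of a RefSeq start are shown for the 3 genes (GRCm38.p6, all on the minus strand, 5′ to 3′). Shared control was not tested. Capitals mark GGGCGG or its reverse complement CCGCCC.
Col6a1, chr10:76726045-76726164: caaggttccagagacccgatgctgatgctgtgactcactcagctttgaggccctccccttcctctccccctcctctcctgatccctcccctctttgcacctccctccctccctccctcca
Col6a2, chr10:76623405-76623524: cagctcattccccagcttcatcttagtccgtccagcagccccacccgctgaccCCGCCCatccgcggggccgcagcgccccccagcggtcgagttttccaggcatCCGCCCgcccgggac
Col6a3, chr1:90843972-90844091: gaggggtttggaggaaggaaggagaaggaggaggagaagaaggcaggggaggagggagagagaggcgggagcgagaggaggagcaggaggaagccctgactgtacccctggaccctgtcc
RefSeq promoters were at hand for 7 of the 10 members, and not for Col12a1, Col14a1 and Col22a1. Over the 250 bases upstream, GGGCGG on either strand was found in Col6a2, Col8a1, Col8a2 and Col16a1, and in 32.7% of all 32851 promoters of that table. TATAAA on either strand was found in none of the 7, and in 12.4% of all promoters. CCAAT on either strand was found in Col16a1, and in 33.8% of all promoters. GC content over the same 250 bases was 56.0% for Col6a1, 64.4% for Col6a2 and 57.2% for Col6a3, against a median of 52.4% for all promoters.

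In tenocyte-like cells Col6a1 stood at 582 CPM (577 to 588) in 6 M WT, at 582 CPM (574 to 590.2) for 6 M DTR and at 366 CPM (355 to 378) for 21 M B6. Col6a2 stood at 370.0, 364 and 202 CPM in the same order. Col6a3 stood at 319 CPM (314 to 323), 282 CPM (276 to 287) and 91.8 CPM (86.2 to 97.8). The 21 M B6 library was thus lowest for each chain, and the intervals of Col6a3 did not overlap between any of the libraries. Against 6 M WT, 21 M B6 was 0.629-fold (0.609 to 0.650) for Col6a1, 0.545-fold (0.522 to 0.570) for Col6a2 and 0.288-fold (0.27 to 0.307) for Col6a3. The ratios of 6 M DTR to 6 M WT were 1.00 (0.983 to 1.02), 0.985 (0.964 to 1.01) and 0.884 (0.864 to 0.905). The alpha 3 chain thus had the lowest ratio in both comparisons, but its 6 M DTR ratio depended on the sex called, with a log2 ratio of -0.18 over all cells and 0.07 in cells called male.

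Epitenon-like cells carried the type VI chains at similar levels and with the same order of libraries. Col6a1 stood at 540.0, 475 and 314 CPM, Col6a2 at 361, 335 and 198 CPM and Col6a3 at 257, 253 and 113 CPM in library order. The ratios of 21 M B6 to 6 M WT were 0.581 (0.565 to 0.598), 0.550 (0.531 to 0.569) and 0.440 (0.421 to 0.459). Those of 6 M DTR to 6 M WT lay between 0.881 and 0.983. The median gene also stood lower in 21 M B6, at a log2 ratio of -0.27 in both stromal classes. With TMM scaling, which moves that median to -0.04 in tenocyte-like and 0.03 in epitenon-like cells, the log2 ratios of 21 M B6 to 6 M WT were -0.45, -0.65 and -1.57 for Col6a1, Col6a2 and Col6a3 in tenocyte-like cells and -0.49, -0.57 and -0.89 in epitenon-like cells.

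The balance of the chains shifted with these differences. In library order Col6a3 made up 25.1% (24.8 to 25.4), 22.9% (22.5 to 23.3) and 13.9% (13.1 to 14.7), of the type VI UMIs of tenocyte-like cells. Col6a1 made up 45.8%, 47.4% and 55.5%. In epitenon-like cells the share of Col6a3 was 22.2% (21.6 to 22.8), 23.8% (23.2 to 24.5) and 18.1% (17.6 to 18.6). The share of Col6a2 stayed between 29.1% and 31.7% in both classes. A share within a cell sum does not change with library scaling, so the smaller Col6a3 share of 21 M B6 is independent of the TMM correction above.

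**Figure D2:**
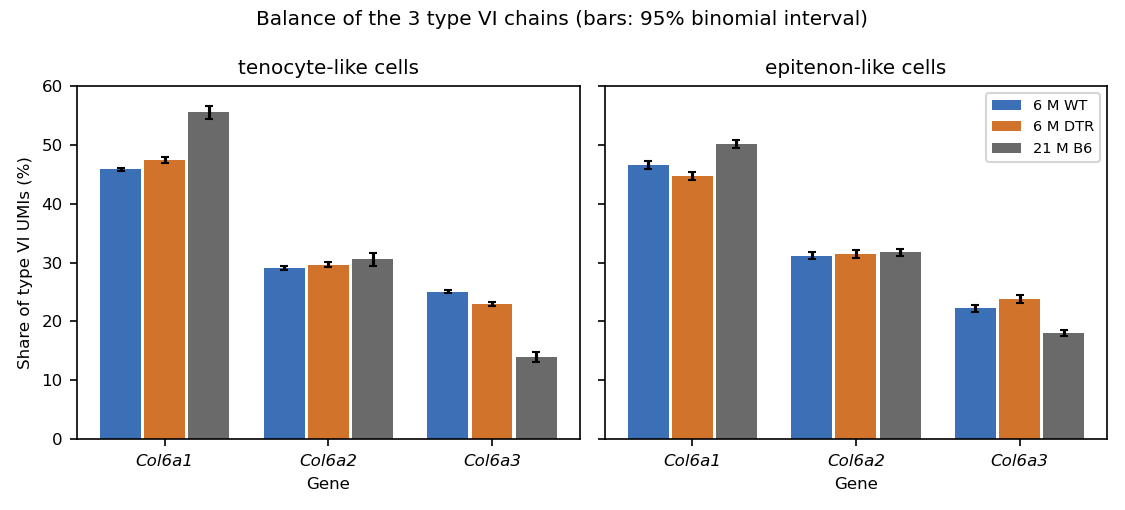
Share (%) of Col6a1, Col6a2 and Col6a3 among the UMIs of the 3 type VI chains in tenocyte-like cells (left) and epitenon-like cells (right) of the 3 libraries; bars start at 0 and lines give the 95% exact binomial interval. The Col6a3 share of tenocyte-like cells was 25.1% in 6 M WT and 13.9% in 21 M B6.

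Col6a1 was highest in tenocyte-like cells and next in epitenon-like cells in each library, and the intervals of these classes did not overlap each other. Muscle fibre-like cells followed at 297, 416 and 243 CPM, but these are 9, 36 and 14 cells whose tenocyte markers summed to 8142, 5761 and 6771 CPM, against 16914, 20088 and 17541 CPM in tenocyte-like cells, and the part of those markers in the level was not tested. Mural-like cells (pericytes and vascular smooth muscle) held Col6a1 at 223 CPM (197 to 252), 412 CPM (382 to 443) and 116 CPM (84.0 to 155). Mural-like cells of 6 M DTR were thus above 6 M WT by 1.84-fold for Col6a1 and 1.84-fold for Col6a2, with epitenon markers at 617 CPM against 263 CPM and tenocyte markers at 402 CPM against 247 CPM beside them, and the part of those markers was not tested. The other chains did not keep the class order of Col6a1 in every library. Col6a3 of 21 M B6 stood at 91.8 CPM (86.2 to 97.8) in tenocyte-like and 113 CPM (110 to 117) in epitenon-like cells, without overlap. In 6 M DTR Col6a3 was highest in mural-like cells, whose interval overlapped that of tenocyte-like cells. In 6 M WT Col6a2 and Col6a3 were highest in the 9 muscle fibre-like cells, at 510 and 463 CPM. Each cell was thinned to 2000 UMIs, which left out 9, 5 and 1 shallower cells. A Col6a1 UMI was then found in 61.2%, 59.6% and 43.0% of tenocyte-like cells. The shares were 1.92%, 2.24% and 0.988% in macrophage-like cells, set beside them for comparison. Unthinned, these shares were 95.9%, 94.1% and 86.6% at a median of 12949, 12392 and 11101 UMIs, and 14.6%, 10.7% and 8.70% at a median of 16303, 13300 and 13881 UMIs.

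Among tenocyte-like cells, those with both Slurp1 and Serpinb7 (593, 140 and 21 cells) carried more type VI RNA than the cells with none of the marker pairs tried. Col6a3 stood at 638 CPM (622 to 655), 515 CPM (485 to 547) and 198 CPM (153 to 251) in them, and at 274 CPM, 267 CPM and 88.4 CPM in the others. Col6a1 stood at 722, 716 and 378 CPM against 562, 574 and 366 CPM, so that in 21 M B6 the intervals of Col6a1 overlapped. Tenocyte-like cells with Kera and Ucma numbered 23, 4 and 0, and those with Igfbp3 and Scn7a 1, 1 and 0, too few for a comparison.

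The 2 type VIII chains went to different cells. Col8a1 was highest in muscle progenitor-like cells, at 303 CPM (237 to 383), 345 CPM (255 to 456) and 213 CPM (165 to 271) in library order, on 19, 15 and 28 cells. A Col8a1 UMI was found in 84.2%, 66.7% and 53.6% of these cells, and in 57.9%, 40% and 35.7% after thinning. Of the muscle progenitor-like cells, 10, 9 and 22 only just met the marker count or the lead needed for the class. The intervals lay above those of all other classes in each library. Epitenon-like cells stood at 69.6, 60.7 and 51.0 CPM and tenocyte-like cells at 30.4, 33.8 and 34.3 CPM. No ratio of Col8a1 between libraries reached 1.5-fold in either stromal class.

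Col8a2, the partner chain, was highest in tenocyte-like cells, where it stood at 57.8 CPM (56.0 to 59.6), 74.0 CPM (71.3 to 76.9) and 32.9 CPM (29.6 to 36.6). The libraries did not overlap, with 6 M DTR highest and 21 M B6 lowest, at 1.28-fold (1.22 to 1.35) and 0.570-fold (0.510 to 0.636) of 6 M WT. The few muscle fibre-like cells came next, on 1, 17 and 3 UMIs, and their intervals overlapped those of tenocyte-like cells. In mural-like, endothelial-like, nerve-like and muscle progenitor-like cells Col8a2 had at most 4 UMIs per library. In epitenon-like cells it stood at 8.75 CPM (7.39 to 10.3), 2.50 CPM (1.79 to 3.4) and 7.27 CPM (6.41 to 8.22), a ratio of 6 M DTR to 6 M WT of 0.286 (0.196 to 0.408) that rests on 40 against 148 UMIs. The tenocyte genes Chad and Coch summed to 145, 31.3 and 34.6 CPM in these cells. Over the whole library Chad stood at 1866, 1230 and 283 CPM and Coch at 7966, 1330 and 1027 CPM. The part of tenocyte RNA in the Col8a2 levels was not tested. The log2 ratio of Col8a2 of 21 M B6 to 6 M WT in epitenon-like cells was -0.27. With free RNA subtracted the log2 ratio of 6 M DTR to 6 M WT was -1.99, against -1.81 without.

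Among members at 5 CPM or more, Col12a1 had the highest ratio of 6 M DTR to 6 M WT in tenocyte-like cells. It encodes type XII collagen, which coats type I fibrils of tendon. It stood at 312 CPM (308 to 317) in 6 M WT, at 697 CPM (689 to 706) for 6 M DTR and at 409 CPM (397 to 421) for 21 M B6. The 3 intervals were far apart, with 6 M DTR highest at 2.23-fold (2.19 to 2.27) and 21 M B6 at 1.31-fold (1.27 to 1.35) of 6 M WT. After thinning, a Col12a1 UMI was found in 39.3% (38.0 to 40.7), 56.9% (55.1 to 58.8) and 46.1% (42.8 to 49.4) of tenocyte-like cells, and in 1.22%, 0.806% and 1.58% of macrophage-like cells. Unthinned, the tenocyte-like shares were 82.2%, 87.6% and 83.8%. Cells called female stood at 309, 516 and 347 CPM and cells called male at 325, 808 and 427 CPM, so both kinds were highest in 6 M DTR.

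Col12a1 was lower in every other class. In epitenon-like cells it stood at 35.9, 33.8 and 27.1 CPM, where the intervals of 6 M DTR overlapped those of 6 M WT. Nerve-like cells held 206, 204 and 141 CPM in library order, next to tenocyte-like cells in 6 M WT and overlapping the few muscle fibre-like cells in the other libraries. The tenocyte markers of nerve-like cells summed to 1222, 579 and 118.5 CPM, and their part was not tested. Mural-like cells stood at 24.5 CPM (16.4 to 35.3), 96.9 CPM (82.8 to 113) and 15.8 CPM (5.78 to 34.3), a ratio of 6 M DTR to 6 M WT of 3.95 (2.65 to 6.07), beside the higher tenocyte and epitenon markers given above. In tenocyte-like cells with Slurp1 and Serpinb7, which were rich in Col6a3, Col12a1 was lower than in the cells with no marker pair, at 211, 311 and 219 CPM against 326, 721 and 415 CPM.

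**Figure D3:**
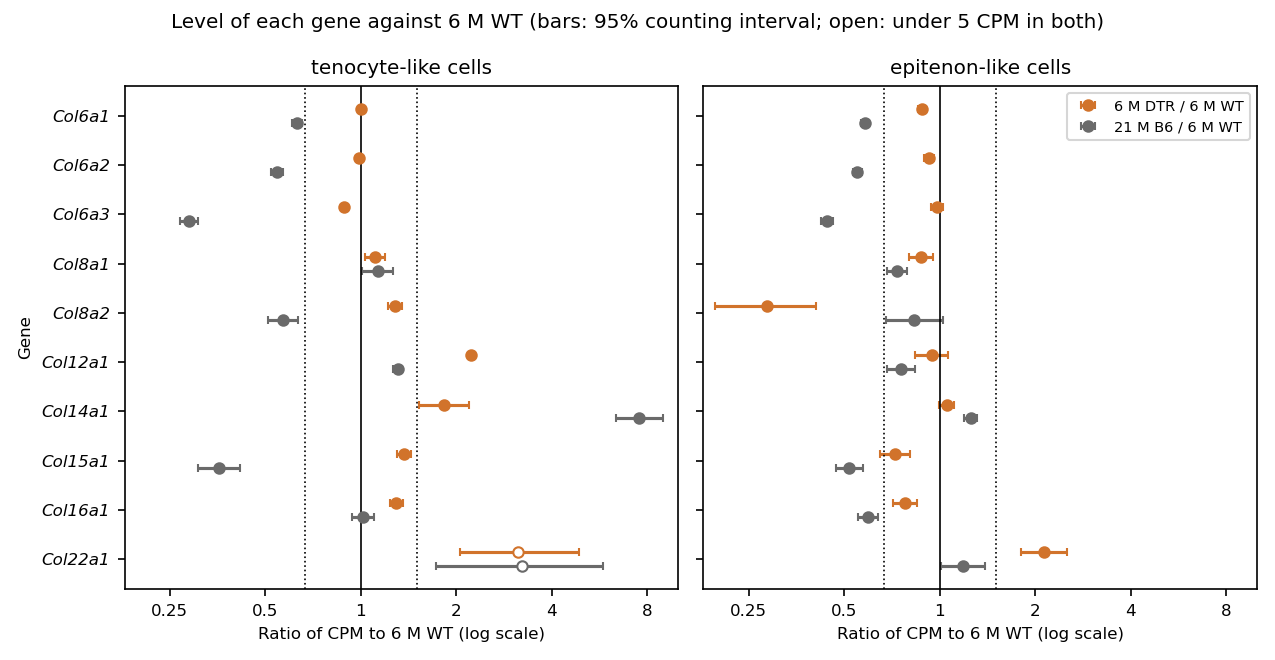
Ratio of CPM (log axis) of 6 M DTR (orange) and 21 M B6 (grey) to 6 M WT for each gene in tenocyte-like (left) and epitenon-like (right) cells; points are the ratios, bars the 95% exact binomial interval, open points genes under 5 CPM in both libraries, and dotted lines 1.5-fold. Col12a1 of 6 M DTR stood at 2.23 and Col14a1 of 21 M B6 at 7.53 in tenocyte-like cells, and the type VI chains of 21 M B6 between 0.288 and 0.629.

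Col14a1, which encodes type XIV collagen, the close relative of type XII, was found mainly in epitenon-like cells. It stood there at 146 CPM (140.5 to 152), 154 CPM (148 to 160.0) and 183 CPM (178 to 187), and 21 M B6 was 1.25-fold (1.19 to 1.31) of 6 M WT. Among epitenon-like cells, those with Pi16 carried more of it, at 228, 317 and 236 CPM on 246, 240 and 1016 cells. Those with Krtdap or Ccn3 and no Pi16 carried 123, 97.0 and 134 CPM on 680, 651 and 967 cells. The intervals of these subsets did not overlap in any library, whereas the Col6a3 levels of the same subsets ran the other way, at 170, 155 and 105 CPM against 289, 287 and 117 CPM. Within each subset the Col14a1 intervals of 21 M B6 and 6 M WT overlapped. With Pi16 they were 229 to 244 against 214 to 244 CPM, and with Krtdap or Ccn3 128 to 140 against 117 to 130 CPM. For 6 M DTR the interval lay above 6 M WT with Pi16 and below it with Krtdap or Ccn3. The part of the subset sizes in the class ratios was not tested.

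In tenocyte-like cells Col14a1 was low in young tendons and higher in 21 M B6. It stood at 3.67 CPM (3.24 to 4.15) in 6 M WT, at 6.72 CPM (5.90 to 7.61) for 6 M DTR and at 27.7 CPM (24.6 to 31.0) for 21 M B6. The ratio of 21 M B6 to 6 M WT was 7.53 (6.35 to 8.94). The epitenon markers of these tenocyte-like cells summed to 1686, 1269 and 1594 CPM in library order. Restricted to tenocyte-like cells with UMIs of at most 1 epitenon marker (1164, 959 and 206 cells), Col14a1 stood at 2.51 CPM (1.73 to 3.53), 7.05 CPM (5.55 to 8.84) and 19.3 CPM (13.5 to 26.7). In the 99, 239 and 21 tenocyte-like cells with no UMI of an epitenon marker it stood at 6.36 CPM (2.07 to 14.8), 18.1 CPM (13.0 to 24.6) and 11.3 CPM (1.36 to 40.7), on 5, 41 and 2 UMIs, so that 6 M DTR was highest there and the intervals of 21 M B6 overlapped those of both other libraries. The part of epitenon RNA in the difference was not tested. After thinning, 0.709%, 1.12% and 4.25% of tenocyte-like cells had a Col14a1 UMI, against 0.901%, 0% and 0% of T cell-like cells. Unthinned these shares were 3.13%, 4.89% and 16.5%, and 0.901%, 1.05% and 0% at a median of 10068, 8039 and 9902 UMIs. The thinned share of T cell-like cells of 6 M WT is 1 of 111 cells, and that cell held all 5 Col14a1 UMIs of the class. The background is thus poorly known. At this depth the low tenocyte-like share of 6 M WT could not be told from it, and the ratios to 6 M WT rest on that low level. The ratio of 6 M DTR to 6 M WT, 1.83 (1.53 to 2.19), depended on the sex called: the log2 ratio was -0.21 in cells called female.

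Col14a1 was also the member with the clearest signal in macrophage-like cells. It stood there at 25.7 CPM (22.6 to 29.1), 17.6 CPM (15.6 to 19.8) and 20.5 CPM (17.4 to 24.0), which is 88.4%, 43.8% and 18.3% of its level in the whole library. Other members stood in macrophage-like cells at smaller shares of their library level, as Col6a1 at 4.74%, 2.94% and 3.59% and Col12a1 at 4.17%, 2.37% and 4.22%. Col15a1 stood higher than these, at 10.9%, 10.1% and 7.68%, and so did Col16a1, at 8.75%, 4.90% and 6.21%. Chad and Coch, used as a gauge of free RNA, stood at 4.22% and 3.25% of the library level in 6 M WT, 2.30% and 0.997% in 6 M DTR, and 8.76% and 12.3% in 21 M B6. In macrophage-like cells with no tenocyte or epitenon marker at 2 UMIs (360, 762 and 388 cells), Col14a1 stood at 28.1 CPM (23.9 to 32.9), 18.6 CPM (16.1 to 21.4) and 19.0 CPM (15.5 to 23.0). Col6a1 stood in those cells at 6.66, 6.49 and 2.92 CPM. Col15a1 stood in those cells at 7.21%, 6.89% and 5.63% of its library level and Col16a1 at 5.07%, 3.93% and 5.07%. Chad and Coch stood in those cells at 0.839% and 0.870% of the library level in 6 M WT. For 6 M DTR they stood at 0.867% and 0.751%, and for 21 M B6 at 1.61% and 1.12%. The gauge was thus lower there than over all macrophage-like cells, which include cells with stromal markers. Col14a1 UMIs came from 74, 105 and 63 of those cells. T cell-like cells had 5, 3 and 0 Col14a1 UMIs, the 5 of 6 M WT all in 1 cell. Over the whole 6 M WT library, by contrast, Col14a1 stood at 29.1 CPM and Col6a1 at 502 CPM.

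Col16a1, for type XVI collagen, was highest in nerve-like cells, a class gated on Schwann cell markers such as Sox10. It stood there at 373 CPM (317 to 436), 301 CPM (255 to 353) and 183 CPM (147 to 225) on 67, 82 and 51 cells, above all other classes in each library. The tenocyte markers of these cells are given above, and their epitenon markers summed to 221, 163 and 622 CPM, which was not tested further. The ratio of 21 M B6 to 6 M WT in nerve-like cells was 0.491 (0.374 to 0.640), and that of 6 M DTR was 0.808 (0.643 to 1.02). Tenocyte-like cells stood at 66.3, 85.8 and 67.6 CPM and epitenon-like cells at 76.8, 59.7 and 45.7 CPM. The order of the stromal classes thus differed between libraries: epitenon-like cells were higher in 6 M WT and tenocyte-like cells in 6 M DTR and 21 M B6, each without overlap of the intervals. In epitenon-like cells 21 M B6 stood at 0.595-fold (0.553 to 0.641) of 6 M WT, a log2 ratio of -0.75 that was -0.45 with TMM scaling.

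Col15a1, for type XV collagen of basement membrane zones, was highest in endothelial-like cells of the young libraries, at 137 CPM (118 to 157) in 6 M WT, where only 9 muscle fibre-like cells overlapped it, and 189 CPM (168 to 212) in 6 M DTR. In 21 M B6 endothelial-like cells stood at 71.5 CPM (59.3 to 85.5), a ratio to 6 M WT of 0.524 (0.415 to 0.659), and overlapped nerve-like cells at 81.1 CPM (57.7 to 111). Mural markers in these endothelial-like cells summed to 1367, 1527 and 3456 CPM, and their part was not tested. In tenocyte-like cells Col15a1 stood at 48.1 CPM (46.5 to 49.8), 65.7 CPM (63.1 to 68.4) and 17.2 CPM (14.8 to 19.9). Here 21 M B6 was 0.358-fold (0.307 to 0.415) of 6 M WT and 6 M DTR was 1.37-fold (1.30 to 1.44). In epitenon-like cells it stood at 46.9, 33.9 and 24.3 CPM. The 21 M B6 library was therefore the lowest in all 3 of these classes, while 6 M DTR was above 6 M WT in tenocyte-like and endothelial-like cells and below it in epitenon-like cells.

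Col22a1, for type XXII collagen, was the rarest member in the young libraries and came from very few cells. In 21 M B6 Col8a2 had fewer UMIs, 800 against 871. Its 418, 852 and 871 UMIs lay in 77, 162 and 161 cells in library order. Cells with at least 3 UMIs, a threshold chosen after the values were seen, numbered 47, 71 and 93, or 0.562%, 1.08% and 1.94% of cells, and held 90.4%, 87.1% and 90.5% of the UMIs. For comparison, 16, 24 and 29 cells held 50% of the Col22a1 UMIs, against 1512, 876 and 789 cells for Col6a1. Of the cells with at least 3 UMIs, 23, 40 and 56 were epitenon-like and 19, 26 and 34 were in no class.

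**Figure D4:**
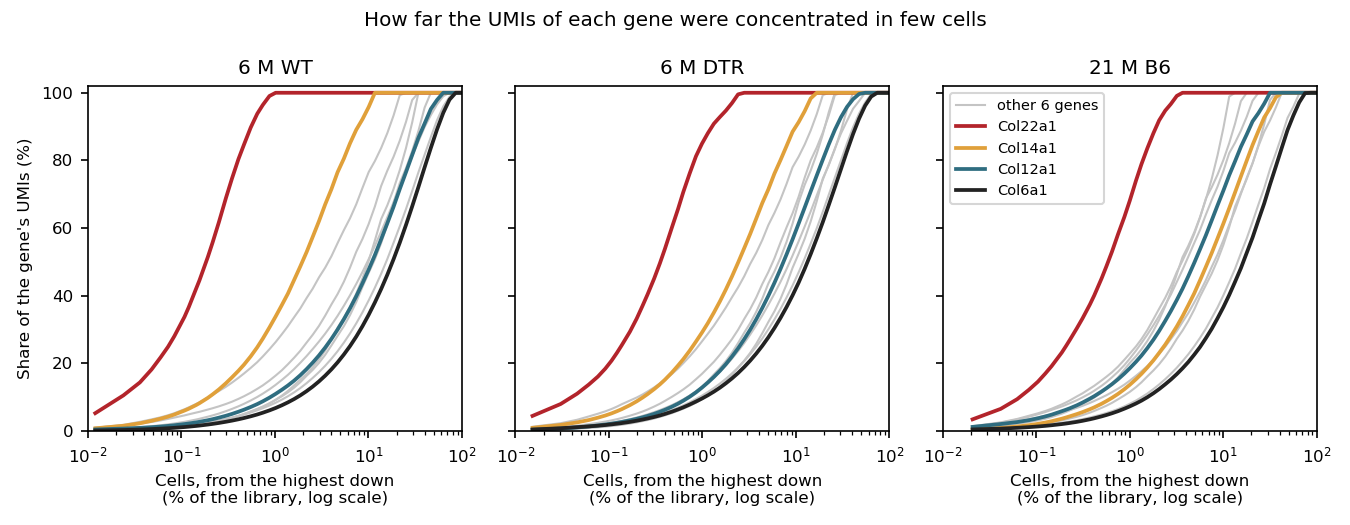
Cumulative share (%) of the UMIs of each gene (vertical) against the share of cells (horizontal, log axis, cells ordered from the highest count down), with a panel for 6 M WT, then 6 M DTR, then 21 M B6; grey lines are the other 6 genes. The 100 highest cells held 100%, 92.7% and 92.1% of the Col22a1 UMIs, and 7.65%, 12.7% and 12.5% of the Col6a1 UMIs.

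The cells with at least 3 Col22a1 UMIs shared a set of other genes in every library. Of the 20 genes with the highest fold over the other epitenon-like cells at 50 CPM or more, 12 were common to the 3 libraries: Bglap, Bglap2, Chst2, Clic5, Cystm1, Hhip, Htra4, Megf10, Rab37, Rgs5, Sema3a and Tmem196. Clic5 stood at 2636, 2722 and 2906 CPM in them and at 67.9, 43.2 and 48.0 CPM in the other epitenon-like cells. Prg4, which encodes lubricin and was looked up after these genes were seen, stood at 69447, 107378 and 66240 CPM against 5011, 4847 and 4071 CPM. The other 9 members were lower in these cells than in other epitenon-like cells in every library, except Col12a1 of 21 M B6 at 28.1 against 27.9 CPM. Col14a1, for example, stood at 19.2, 28.2 and 40.8 CPM against 149.9, 159 and 188 CPM. No class name of their own was given to them, since no class was gated for them. They did carry gating markers, with a median of 3, 3 and 4 epitenon markers per cell in library order. Since the cells were picked by Col22a1 within the same counts, these values are a description.

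At the level of classes, Col22a1 stood at 12.9 CPM (11.2 to 14.7), 27.5 CPM (25.0 to 30.2) and 15.3 CPM (14.0 to 16.6) in epitenon-like cells. The ratio of 6 M DTR to 6 M WT was 2.13 (1.81 to 2.52), and sex-called cells gave very different values: 18.9, 28.1 and 20.3 CPM in cells called female and 0.87, 27.5 and 11.0 CPM in cells called male. In 6 M WT, 40 of the Col22a1 cells were called female and 1 male, against 28 and 35 in 6 M DTR and 54 and 22 in 21 M B6, beside 650 and 297, 404 and 490, and 1098 and 886 epitenon-like cells. Epitenon-like cells with Pi16 (246, 240 and 1016 cells) held 0, 0 and 23 Col22a1 UMIs. Those with Krtdap or Ccn3 and no Pi16 (680, 651 and 967 cells) held 207, 391 and 463. In the latter Col22a1 stood at 19.0 CPM (16.5 to 21.7), 35.8 CPM (32.4 to 39.6) and 32.0 CPM (29.1 to 35.0). There 21 M B6 overlapped 6 M DTR and lay above 6 M WT, whereas over the class it overlapped 6 M WT. The part of the subset sizes was not tested. In tenocyte-like cells Col22a1 stayed at 0.525, 1.65 and 1.69 CPM, under the 5 CPM needed for a comparison. Muscle fibre-like cells, the class nearest to the junction this collagen is known from, had 0 UMIs in 9 cells of 6 M WT, which allows up to 35.6 CPM at 3 counts, 11 UMIs in 36 cells of 6 M DTR and 7 UMIs in 14 cells of 21 M B6. In each of the latter libraries all of these UMIs lay in 1 cell.

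Counted over the members, tenocyte-like cells of 6 M DTR had 2 of 9 tested members (those with at least 5 CPM in 1 of the compared libraries) over 1.5-fold higher than 6 M WT, Col12a1 and Col14a1, where 7.88% of all 9400 genes tested were. None of the 9 was over 1.5-fold lower, where 5.79% of all genes were. The median log2 ratio of the 9 was 0.36, against 0.04 for all genes. Tenocyte-like cells of 21 M B6 had 1 of 9 higher, Col14a1, where 6.51% of all genes were, and 5 of 9 lower, Col6a1, Col6a2, Col6a3, Col8a2 and Col15a1, where 15.7% of all genes were. The median was -0.67 against -0.27 for all genes. Epitenon-like cells of 6 M DTR had 1 of 10 higher, Col22a1, and 1 of 10 lower, Col8a2, where 2.19% and 5.00% of all genes were, with a median of -0.15 against 0.01. Epitenon-like cells of 21 M B6 had 0 of 10 higher, where 4.31% of all genes were, and 5 of 10 lower, the 3 type VI chains, Col15a1 and Col16a1, where 11.0% were, with a median of -0.60 against -0.27. These comparisons share the 6 M WT library.

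The scaling of the libraries bears on these counts. Of the genes past 1.5-fold in tenocyte-like cells, 57.7% were higher for 6 M DTR and 29.3% for 21 M B6, which became 40.2% and 63.2% with TMM scaling. In epitenon-like cells the shares were 30.5% and 28.1%, and 29.3% and 78.4% with TMM scaling. With it the members lower in 21 M B6 numbered 4 in tenocyte-like cells and 2 in epitenon-like cells, where Col6a3 at -0.89 and Col15a1 at -0.65 on the log2 scale remained past the threshold. Over all genes, those lower in 21 M B6 then numbered 556 in tenocyte-like and 244 in epitenon-like cells, against 1446 and 1044 without TMM scaling. Set directly against 6 M DTR without TMM scaling, tenocyte-like cells of 21 M B6 stood at 0.326-fold (0.305 to 0.348) for Col6a3 and 0.587-fold (0.568 to 0.606) for Col12a1. Col15a1 stood at 0.262-fold (0.224 to 0.305) and Col14a1 at 4.12-fold (3.46 to 4.90). TMM scaling moved log2 ratios to 6 M WT in these cells by 0.22 for 21 M B6 and by -0.11 for 6 M DTR. It would thus raise these ratios, and that of Col12a1 would no longer be past 1.5-fold. The other members and the share of all genes are not given for this comparison.

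Because the classes made up different parts of each library, the source of each collagen differed as well. Tenocyte-like cells were 62.4% of 6 M WT cells, 42.2% of 6 M DTR cells and 18.7% of 21 M B6 cells. They held 72.0%, 59.9% and 22.1% of the Col6a1 UMIs, and epitenon-like cells held 16.0%, 21.4% and 62.6%. Col12a1 came from tenocyte-like cells in each library, at 91.8%, 91.1% and 69.4% of its UMIs, while Col14a1 came from epitenon-like cells at 75.0%, 71.2% and 87.4%. Col8a2 was at 88.8%, 87.7% and 43.8% from tenocyte-like cells. Macrophage-like cells gave 7.52%, 8.07% and 2.08% of the Col14a1 UMIs.

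**Figure D5:**
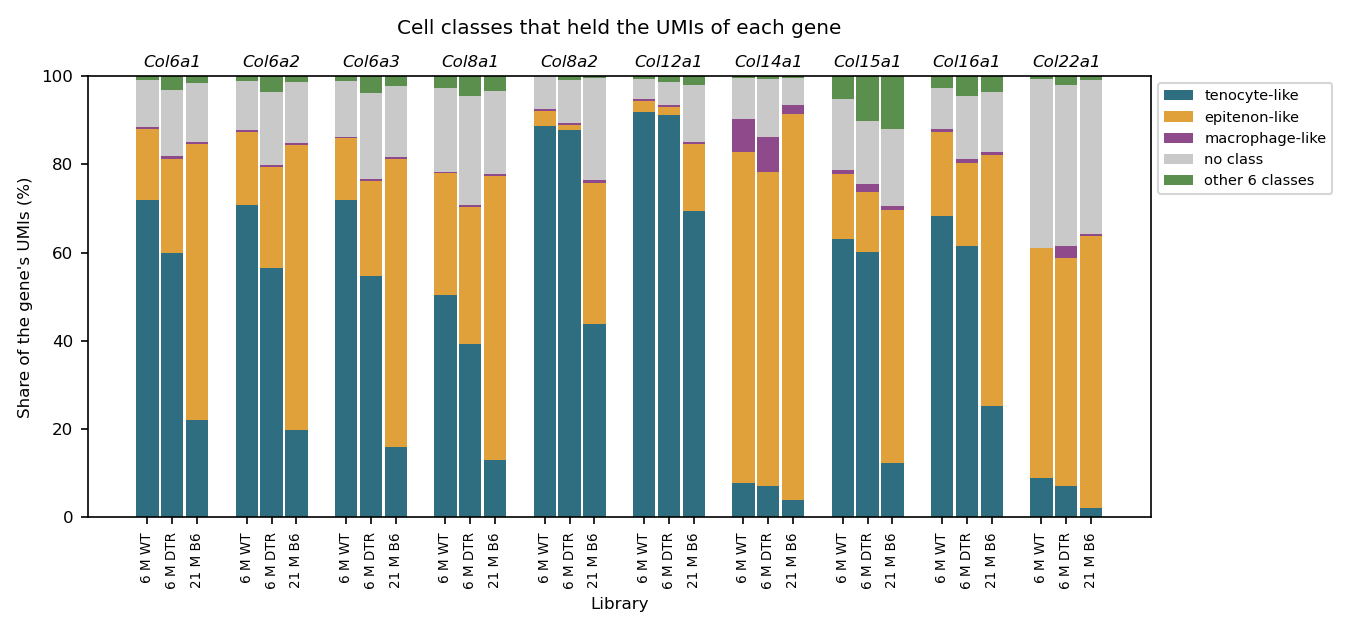
Share (%) of the UMIs of each gene that came from tenocyte-like, epitenon-like and macrophage-like cells, from cells in no class and from the other 6 classes, for 6 M WT, then 6 M DTR, then 21 M B6; each bar sums to 100%. Tenocyte-like cells held 72.0% of Col6a1 UMIs in 6 M WT and 22.1% in 21 M B6, while for Col12a1 they held 91.8% and 69.4%.

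The level over a whole library therefore mixed class sizes with levels within classes. Over all cells Col12a1 stood at 211, 325 and 95.2 CPM, so that 21 M B6 was 0.451-fold (0.438 to 0.463) of 6 M WT. Each class, and the cells in no class, was then weighted by its share of all UMIs in 6 M WT. With these weights the same ratio was 1.27, on the other side of 1. For 6 M DTR the ratio was 1.54 (1.51 to 1.56) as it stood and 2.15 at these UMI shares of 6 M WT. Col14a1 of 21 M B6 was 3.85-fold (3.70 to 4.02) over all cells and 1.78-fold at those shares. Col6a3 of 21 M B6 was 0.338-fold and 0.319-fold, so its lower level changed little with the weights. Col22a1 was 2.69-fold and 3.60-fold in 6 M DTR and 21 M B6 over all cells, and 2.26-fold and 1.91-fold at those shares. How many cells of each class a digestion releases is part of these values and cannot be told apart from the tissue.

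Genes of the wider collagen matrix were counted in the same way. They are read against the shares of all genes past 1.5-fold given above, which are without TMM scaling. In tenocyte-like cells these were 7.88% higher and 5.79% lower for 6 M DTR, with 6.51% and 15.7% for 21 M B6. In epitenon-like cells they were 2.19% and 5.00%, with 4.31% and 11.0%. With TMM scaling, 523 of all genes were higher and 777 lower in tenocyte-like cells of 6 M DTR, with 954 and 556 for 21 M B6. In epitenon-like cells these numbers were 192 and 464, with 884 and 244. Of 8 fibrillar collagen genes in tenocyte-like cells, 3 were over 1.5-fold higher in 6 M DTR, Col3a1 at 2.03-fold, Col5a3 at 1.90-fold and Col5a1 at 1.60-fold, and 1 was lower, Col11a2 at 0.214-fold. In 21 M B6, 0 of 8 were higher and 4 were lower, among them Col11a2 at 0.360-fold, Col1a1 at 0.388-fold and Col1a2 at 0.456-fold. In epitenon-like cells 0 of 6 tested passed the threshold in 6 M DTR, and all 6 tested were lower in 21 M B6, led by Col3a1 at 0.320-fold, Col1a1 at 0.419-fold and Col5a2 at 0.483-fold. With TMM scaling 4 of these 6 remained lower, without Col1a2 and Col5a1. In tenocyte-like cells it left 2 fibrillar genes higher in 6 M DTR, without Col5a1, and 3 lower in 21 M B6, without Col11a1. With the 24 other collagen genes, 3 of 5 tested in tenocyte-like cells of 6 M DTR were higher, Col18a1, the relative of Col15a1, at 3.28-fold, Col4a2 at 2.29-fold and Col4a1 at 1.55-fold, and 1 was lower, Col13a1 at 0.611-fold. Col18a1, at 5.95 against 1.81 CPM, and Col13a1, at 4.80 against 7.86 CPM, lay near the minimum of 5 CPM. In tenocyte-like cells of 21 M B6, 1 of 4 was higher, Col4a1 at 1.51-fold, and 1 lower, Col27a1 at 0.469-fold. In epitenon-like cells of 6 M DTR 0 of 4 passed, and of 21 M B6 1 of 4, Col27a1 at 0.524-fold. With TMM scaling Col4a1 was no longer past the threshold in tenocyte-like cells of 6 M DTR.

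Receptors and partners that bind these collagens followed. Of 12 receptor genes, 10 were tested in tenocyte-like cells. In 6 M DTR 3 were higher, the collagen-binding integrin Itga11 at 2.54-fold, the collagen-binding receptor Antxr1 at 1.62-fold and Itga10 at 1.56-fold, and 2 were lower, Itga2 at 0.525-fold and Ddr1 at 0.661-fold. In 21 M B6 0 were higher and 3 lower, Cspg4, a proteoglycan that binds type VI collagen, at 0.479-fold, Ddr1 at 0.515-fold and Itga2 at 0.634-fold. In epitenon-like cells 1 of 9 was lower in each comparison, Itga1 at 0.535-fold in 6 M DTR and Cspg4 at 0.511-fold in 21 M B6, the latter near the 11.0% of all genes. Cspg4 is also a mural marker used to sort the cells, and the part of the sorting was not tested. With TMM scaling Itga11 and Antxr2 were higher in tenocyte-like cells of 21 M B6 and Itga11 in epitenon-like cells. Over all genes the higher ones of 21 M B6 then numbered 954 and 884, against 598 and 408 without TMM scaling. In tenocyte-like cells Itga10 of 6 M DTR and Itga2 of 21 M B6 were then no longer past the threshold.

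Of 14 matrix partners, 13 were tested in tenocyte-like cells of 6 M DTR, with 4 higher and 1 lower. Postn, for periostin, was 6.07-fold, Tnc, for tenascin-C, 5.67-fold and Lum, for lumican, 2.77-fold of 6 M WT, while Tnxb, for tenascin-X, a partner of types XII and XIV, was 0.639-fold. The Postn ratio rests on low levels, 12.5 against 2.06 CPM, where Lum stood at 987 against 357 CPM. In 21 M B6 2 of 12 were higher, Nid1 at 2.28-fold and Tnc at 2.24-fold, and 2 were lower, Fn1 at 0.333-fold and Matn2 at 0.441-fold, a share of lower genes near the 15.7% of all genes. In epitenon-like cells 2 of 14 were higher and 2 lower in 6 M DTR, led by Tnc at 3.23-fold and Fn1 at 1.89-fold, with Nid2 at 0.650-fold and Fmod at 0.657-fold. In epitenon-like cells of 21 M B6, 0 of 14 were higher and 5 lower, led by Fmod at 0.236-fold, Postn at 0.246-fold (5.17 against 21.0 CPM) and Matn2 at 0.510-fold. With TMM scaling these 3 remained lower and Nid1 was higher. In tenocyte-like cells of 6 M DTR the 4 higher genes remained with it, and Tgfbi joined Tnxb as lower. Fmod, lower in epitenon-like cells of both comparisons, is also a tenocyte marker used to sort the cells. The sorting thus bears on its level in epitenon-like cells. Coch stood in these cells at 99.3, 16.8 and 26.3 CPM and Chad at 45.7, 14.5 and 8.35 CPM in library order. The part of the sorting and of tenocyte RNA in the Fmod ratios was not tested.

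The genes whose levels ran most like each member were found by Pearson r of log2(CPM + 1) over the same 23 points, among 10198 genes with at least 20 CPM in some point. The points share libraries, and r is given with no test. For Col6a1 they were Col6a2 at 0.98, Sspn at 0.97 and Bicc1 at 0.97, for Col6a2 Col6a1, Col6a3 and Loxl2 at 0.96, and for Col6a3 Col6a2, Setbp1 at 0.97 and Cacna2d1 at 0.97. For Col12a1 they were Thbs2 at 0.94, Col5a2 at 0.90 and Zfhx4 at 0.90, and for Col14a1 Dclk1 at 0.83, Wnt10b at 0.82 and Ptx3 at 0.82. For Col8a1 they were Nectin3 at 0.94, Sulf1 at 0.91 and Bgn at 0.91, and for Col8a2 Clec11a at 0.94, Ptgfr at 0.92 and Dcn at 0.92. For Col15a1 they were Smad5 at 0.90, S100a16 at 0.89 and Hspg2, for the basement membrane proteoglycan perlecan, at 0.87. For Col16a1 they were Pak3 at 0.94, Zfp469 at 0.93 and the nerve marker Gpm6b at 0.93, and for Col22a1 Hpse2 at 0.89, Gnpnat1 at 0.87 and Slc6a4 at 0.87. Col12a1 and Col14a1 themselves had an r of 0.22 with each other.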

How the data were processed

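Libraries were made with 10x Genomics Chromium 3′ version 3 chemistry. The authors deposited raw UMI counts for every gene in every barcode. The matrix headers name Cell Ranger 6.0.1 and the submitters' processing notes 2.1.1, and the build with its annotation is not given in the sources used here. Barcodes with 1000 to 5000 genes detected and mitochondrial UMIs up to 10% were kept, the study's filter, which left the stated cell numbers in 6 M DTR and 21 M B6 and a few cells fewer than stated in 6 M WT. The kept cells held 69.3% to 76.6% of the 92707026 to 148149903 UMIs per library. The study clustered cells; here each cell was placed by marker counts: a marker counted at 2 UMIs, and a class needed 3 of its 8 markers and a lead of 2 over the next class. Cells 1 marker from the limit or the lead made up 11.7% to 22.5% of tenocyte-like and 13.3% to 25.1% of epitenon-like cells. No doublet caller was run, and leaving out cells with markers of a further class was an alternative. UMIs were summed per class and library, and CPM, exact Poisson (levels), conditional exact binomial (ratios) and Clopper-Pearson (shares) 95% intervals were computed with Python 3.11.15, numpy 2.4.6, scipy 1.17.1 and pandas 2.3.3. TMM factors came from edgeR 4.0.16, with no test. For 1 alternative free RNA was put at 3.48%, 1.71% and 9.77% in library order, the mean level of Chad and Coch in macrophage-like and T cell-like cells over their library level. These cells include macrophage-like cells with stromal markers, and without those the macrophage-like values were lower, as given above. A gene was compared, at 1.5-fold, if 1 of the 2 libraries reached 5 CPM, with 1 library per group and so no p-value. The computation was tested on simulated data. All 10 members are named, with the 3 genes of each list furthest past 1.5-fold and the 3 genes most like each member; the Col22a1-rich cells, Prg4 and the macrophage-like subset were added after values were seen. The members and lists were chosen with earlier results of these data known.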

Additional observations from a re-analysis of the deposited data

How the results depend on the processing

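Over 12 alternatives, 38 results (10 members less 1 under the minimum in tenocyte-like cells, each in 2 classes and 2 comparisons) gave 456 values. Of these, 318 moved by less than counting error, 137 moved further and 1 changed sign among ratios past 1.5-fold: Col14a1 in tenocyte-like cells, 6 M DTR against 6 M WT, at -0.21 in cells called female (0.87 with all cells). Ratios under 1.5-fold that changed sign are counted in the first 2 numbers. Among them were Col6a1 in tenocyte-like cells of 6 M DTR, under 6 alternatives, and Col6a3 in epitenon-like cells of 6 M DTR, under 5. Of the 15 ratios past 1.5-fold, 14 kept their sign under every alternative and 7 stayed past 1.5-fold under all of them. Col12a1 in tenocyte-like cells of 6 M DTR ranged from 0.74 to 1.38, Col14a1 in those of 21 M B6 from 2.69 to 3.39, Col6a3 in those from -1.99 to -1.48, and Col22a1 in epitenon-like cells of 6 M DTR from 0.57 in cells called female to 4.98 in cells called male. The count of members over 1.5-fold moved under these alternatives. In tenocyte-like cells, the 2 higher in 6 M DTR became 1 in cells called female, 3 in cells called male and 1 at a fold of 2, the 1 higher in 21 M B6 became 2 with no upper limit on genes, 2 with TMM factors and 2 with at most 1 marker of the other stromal class (an alternative chosen after seeing the data), and the 5 lower in 21 M B6 became 2 at a fold of 2 and 4 with TMM factors, in cells called male, with a mitochondrial limit of 5% and with at most 1 marker of the other stromal class. In epitenon-like cells, the 1 higher in 6 M DTR became 0 in cells called female, the 0 higher in 21 M B6 became 1 with TMM factors and 1 in cells called male, and the 5 lower became 2 with TMM factors, 1 at a fold of 2, 6 with no upper limit on genes, 6 in cells called male and 4 with at most 1 marker of the other stromal class. The cause of these changes was not tested. For TMM scaling the numbers of all genes past the threshold are given above. For the other alternatives no matching values of all genes are given, so those counts cannot be read against them. With a minimum of 20 CPM, 5491 and 5296 genes were compared in tenocyte-like cells, and in 6 M DTR 6.05% were higher with 5.94% lower, while for 21 M B6 it was 6.72% with 11.8%; in epitenon-like cells these were 1.27%, 3.58%, 4.28% and 8.42%. With no minimum they were 24.2%, 17.7%, 13.5% and 38.3% in tenocyte-like and 16.6%, 18.3%, 18.1% and 24.3% in epitenon-like cells. No paired analysis was possible because each group is 1 library, and for the same reason no replicate could be left out.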
